A study of Rattus norvegicus with 17 samples.

Results

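The proteasome genes of the rat colon were examined as the non-control probes whose array gene name, without the suffixes _predicted or _mapped, began with Psm, a letter from a to g and a digit. The rule took 50 of 41012 probes, and it used no measured value. These 50 probes carry 42 of 35538 gene names, which outside the rule are current names where one was found. Psmb8, Psmb9, Psmb10, Psme1 and Psme2, the interferon-inducible genes of the immunoproteasome, are set beside the subunits that every cell carries. Among the 42 names, Psmc3ip encodes a cofactor of meiotic recombination and no subunit, and Psma3l is a near-identical copy of Psma3, so signal from the pair cannot be split with certainty.

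The series asked how dietary calcium affects colitis in female HLA-B27/β2-microglobulin transgenic rats of an inbred Fisher 344 background, which were 8 to 10 weeks old when the experiment began. The high calcium group was 8 rats on a purified Western-type diet with 120 mmol calcium per kg, and the low calcium group was 9 rats on the same diet with 30 mmol calcium per kg and more glucose. Every rat in both groups carries the 2 human transgenes, whose promoter the sources used here do not give, and no rat without them was analysed here. RNA from mucosal scrapings of 1 rat was labelled with Cy5 on each array against a Cy3 pool of all animals, and no dyes were swapped. A value is therefore the log2 ratio of a rat to that pool, and it says nothing of how abundant a transcript is beside that of another gene.

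The proteasome is the protease that degrades ubiquitin-tagged proteins in the cytosol and nucleus. Its core is a barrel of alpha rings, which gate the entry, around beta rings, of which Psmb5, Psmb6 and Psmb7 are the catalytic members. A regulatory cap of ATPases (the Psmc genes) and non-ATPase subunits (the Psmd genes) binds tagged proteins, unfolds them and feeds them into the core. Under interferon-gamma, Psmb8, Psmb9 and Psmb10 take the places of Psmb5, Psmb6 and Psmb7 in newly built cores, and the cap made of Psme1 and Psme2 can replace the regulatory cap. Cores of this kind make many of the peptides that MHC class I molecules, such as HLA-B27, display to T cells.

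The promoters of 5 subunit genes are shown because they hold letters known from the interferon response or from the stress response of proteasome genes. In RefSeq's table for the build GRCr8, a promoter is a stretch of 300 bases around a gene's start, and 38 of the 42 member genes had one. Of 33469 promoters, 3.92% held the core letters of the interferon-stimulated response element on either strand, which are GAAA, any 2 bases and GAAA. Among the 5 inducible genes it was found in 3, and among the 27 core and cap subunits with a promoter it was also found in 3 (Psma4, Psmb3 and Psmd7). The capitals mark the match in the promoters of Psmb8 (chr20:4656982-4657281, minus strand), Psmb10 (chr19:50743243-50743542, minus strand, with 2 matches) and Psme2 (chr15:33052702-33053001, minus strand), each read 5′ to 3′ on the gene's strand. The Psmb8 match lies on the opposite strand of the gene and begins 4 bases before the start.
Psmb8: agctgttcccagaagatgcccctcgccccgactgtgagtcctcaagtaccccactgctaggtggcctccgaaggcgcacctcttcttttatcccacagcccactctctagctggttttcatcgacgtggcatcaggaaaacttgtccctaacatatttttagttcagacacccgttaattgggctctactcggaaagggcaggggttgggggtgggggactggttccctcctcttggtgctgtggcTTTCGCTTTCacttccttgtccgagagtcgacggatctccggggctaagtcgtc
Psmb10: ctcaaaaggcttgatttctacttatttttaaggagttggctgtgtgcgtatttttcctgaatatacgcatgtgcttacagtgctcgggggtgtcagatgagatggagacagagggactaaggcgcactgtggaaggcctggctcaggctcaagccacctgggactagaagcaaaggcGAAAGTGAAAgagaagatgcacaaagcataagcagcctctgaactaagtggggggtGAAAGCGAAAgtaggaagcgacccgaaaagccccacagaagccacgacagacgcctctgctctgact
Psme2: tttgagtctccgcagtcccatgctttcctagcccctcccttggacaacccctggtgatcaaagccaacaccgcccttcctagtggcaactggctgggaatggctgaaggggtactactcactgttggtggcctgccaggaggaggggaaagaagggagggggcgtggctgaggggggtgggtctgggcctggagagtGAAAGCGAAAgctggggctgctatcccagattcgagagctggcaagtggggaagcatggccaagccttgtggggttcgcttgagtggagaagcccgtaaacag

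The core letters of the antioxidant response element, TGACNNNGC, were present in 12.1% of all promoters, in 6 of the 27 core and cap subunits and in 0 of the 5 inducible genes. They are capitals here in Psmb5 (chr15:32047330-32047629, minus strand) and Psmb6 (chr10:55737638-55737937, plus strand), the constitutive partners of Psmb8 and Psmb9.
Psmb5: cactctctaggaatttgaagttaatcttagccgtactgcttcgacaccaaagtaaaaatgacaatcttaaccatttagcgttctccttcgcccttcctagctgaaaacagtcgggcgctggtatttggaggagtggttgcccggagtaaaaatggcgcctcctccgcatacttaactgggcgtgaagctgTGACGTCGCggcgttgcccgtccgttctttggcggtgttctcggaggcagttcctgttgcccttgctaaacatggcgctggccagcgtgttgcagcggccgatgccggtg
Psmb6: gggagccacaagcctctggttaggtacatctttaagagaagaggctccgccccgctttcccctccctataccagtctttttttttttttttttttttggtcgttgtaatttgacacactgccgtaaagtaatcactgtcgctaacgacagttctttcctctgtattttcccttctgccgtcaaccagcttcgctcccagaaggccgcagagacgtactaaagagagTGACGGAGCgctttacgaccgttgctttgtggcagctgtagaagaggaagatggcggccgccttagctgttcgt
The other 4 motifs searched, also on both strands, were the ETS site CCGGAAG, the CCAAT box, the gamma-activated site TTCNNNGAA and the NF-kappaB site, searched as GGG, any 2 bases and TTTCC. The ETS site was found in 10 of the 27 core and cap subunits, in 0 of the 5 inducible genes and in 8.75% of all promoters. The CCAAT box was found in 14 of the 27 and 2 of the 5 against 37.5% of all promoters. The gamma-activated site was found in 3 of the 27 and 1 of the 5 (Psmb8) against 8.87%. The NF-kappaB site was found in 1 of the 27 (Psmd2) and 0 of the 5 against 1.53%. Short motifs can overlap or occur by base composition, and a match describes letters, not binding.

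All 50 member probes lay well above background in Cy5 on all 17 arrays, where 60.6% to 72.5% of all probes did so per array and at most 3 spots were saturated. The median SD of a member between rats was 0.10 in the high and 0.084 in the low calcium group, against 0.12 and 0.11 over all 27101 tested probes. The number of rats limits the precision, and the p-values between diets set a difference against the spread between the rats. High calcium rat 3 and low calcium rat 16 stood apart from their groups in earlier results of these data, and counts are also given without both.

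Most proteasome transcripts were slightly lower in the rats on high calcium, and 0 of the 50 probes passed an adjusted p of 0.05 in limma's test. The difference, high minus low calcium, was below 0 for 45 of the 50 probes, while 46% of all tested probes were below 0. The median difference was -0.070 over the members and 0.0069 over all tested probes, and the members ranged from -0.23 to 0.050. At an unadjusted p under 0.05 stood 10 member probes, or 20%, all with lower values at high calcium, against 8.79% of all tested probes in both directions, of which 4.84% were lower and 3.95% higher. That count of 10 was 20 without rat 14, 4 without rat 18 and 5 without rat 8, 10 or 11. It was 0 with each array centred on its median in place of loess. The whole table moved too, from 2382 of 27101 probes at that p to 3084 without rat 14 and 1589 without rat 18. That number was 2226, 2033 and 1940 without rats 8, 10 and 11, and 780 with median centring. Over the whole table, 0% of the probes passed the adjusted threshold, and the smallest adjusted p of a member was 0.398 (limma). Subunits of a complex were measured in the same rats and tend to move together, so the 50 probes are not independent observations. In mucosa, which holds many cell types and in which neutrophil and fibroblast markers had median differences of -0.38 and -0.53, fewer cells of a type and less RNA per cell cannot be told apart. Without rats 3 and 16, 46 of the 50 were below 0 and 0 passed, although 328 probes of the table then did.

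Probes of like brightness give the scale for these counts. Of the 11841 tested probes within the members' range of brightness, 6274 were below 0, with a median of -0.0052, and 1151 (9.72%) stood at an unadjusted p under 0.05, 756 of them lower and 395 higher at high calcium. Of the 1738 at least as bright as the median member, 844 were below 0, with a median of 0.0026, and 159 (9.15%) stood at that p, 59 lower and 100 higher. Counting each gene once by its brightest probe, 37 of the 42 genes were below 0 and 7 stood at an unadjusted p under 0.05. For the 7 genes with more than 1 probe, the probes had 1 sign in 6, and in Psmd2 they differed (0.014 and -0.083). None of the member probes separated the diets without overlap, against 0.0295% of all tested probes. Centring each array on its median in place of loess left 35 of the 50 probes below 0 and moved the median of all tested probes to 0.041, and in the authors' deposited log2 values 41 of the 50 were below 0.

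**Figure D1:**
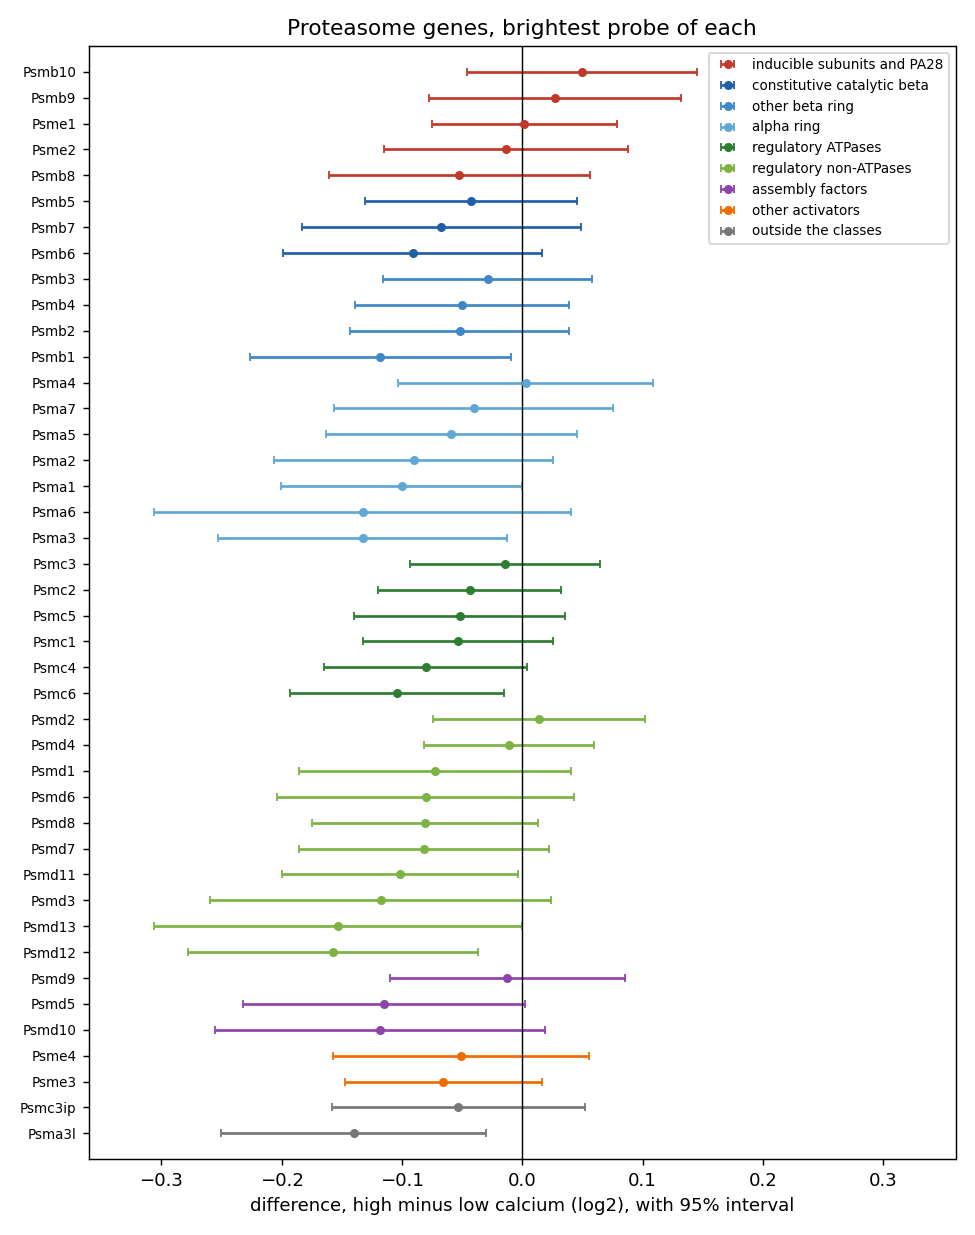
Difference between high and low calcium (x axis, log2, with its 95% interval) for the 42 proteasome genes, each by its brightest probe and coloured by class. The points run from -0.16 for Psmd12 to 0.050 for Psmb10, and 37 of the 42 lie below 0.

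The 5 inducible genes showed no common direction. Their median difference was 0.0016, with 3 above and 2 below 0 and 0 at an unadjusted p under 0.05. Under other scalings that median lay between -0.0098, in the Cy5 channel alone, and 0.050, with median centring, so its sign depends on the scaling. Median centring also moved the median of all tested probes to 0.041 and raised the SE of each inducible gene to 0.28.

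Psmb8, which replaces the chymotrypsin-like subunit Psmb5, lies in the MHC region on chromosome 20 (its probe at chr20:4788207-4788266, build rn3, as the array files give it). It was lowest at -0.32, had a median of -0.072 and was highest at 0.10 in the high calcium rats, and ran from -0.13 through -0.011 to 0.038 in the low calcium rats. Rats 13 and 18 on high calcium lay below every low calcium rat and 2 others above every one, so the high calcium group enclosed the low. The difference was -0.052 ± 0.052 (SE), or -3.56% with a 95% interval of -10.5% to 3.96% (limma adjusted p = 0.823). It was -0.0068 with median centring, -0.019 without rat 18 and -0.030 without rat 13.

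Psmb9, which lies nearby in the MHC region and replaces the caspase-like subunit (chr20:4806568-4806627, rn3), ran from -0.12 through 0.14 to 0.19 at high and from -0.054 through 0.11 to 0.20 at low calcium. A single high calcium rat, rat 13, lay below the low calcium range, and the other 7 lay inside it. The difference was 0.027 ± 0.050, or 1.91% with an interval of -5.21% to 9.55% (limma adjusted p = 0.913). When 1 rat was left out it ran from 0.010 (without rat 8) to 0.060 (without rat 13), and with median centring it was 0.080.

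Psmb10, the inducible trypsin-like subunit (chr19:35782592-35782651, rn3), ran from 0.040 through 0.19 to 0.30 at high and from 0.017 through 0.11 to 0.25 at low calcium. The groups overlapped almost fully, with 2 high calcium rats above the low calcium range. The difference was 0.050 ± 0.046, or 3.50% with an interval of -3.14% to 10.6% (limma adjusted p = 0.804). Median centring gave 0.096, and the Cy5 channel alone -0.0098.

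Psme1 and Psme2 encode the 2 chains of the interferon-inducible cap and lie near each other on chromosome 15 (probes at chr15:33730266-33730552 and chr15:33739894-33740973, rn3). Psme1 ran from -0.21 through -0.029 to 0.025 at high and from -0.10 through -0.062 to 0.017 at low calcium, a difference of 0.0016 ± 0.037, or 0.108% with an interval of -5.09% to 5.59% (limma adjusted p = 0.995). Psme2 ran from -0.25 through -0.032 to 0.083 at high and from -0.13 through -0.053 to 0.035 at low calcium, a difference of -0.014 ± 0.049, or -0.941% with an interval of -7.66% to 6.26% (limma adjusted p = 0.960). Rat 13 was the lowest and rat 14 the highest high calcium rat for both genes. The intervals of the 5 inducible genes reach at most 10.5% below and 10.6% above the low calcium mean.

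**Figure D2:**
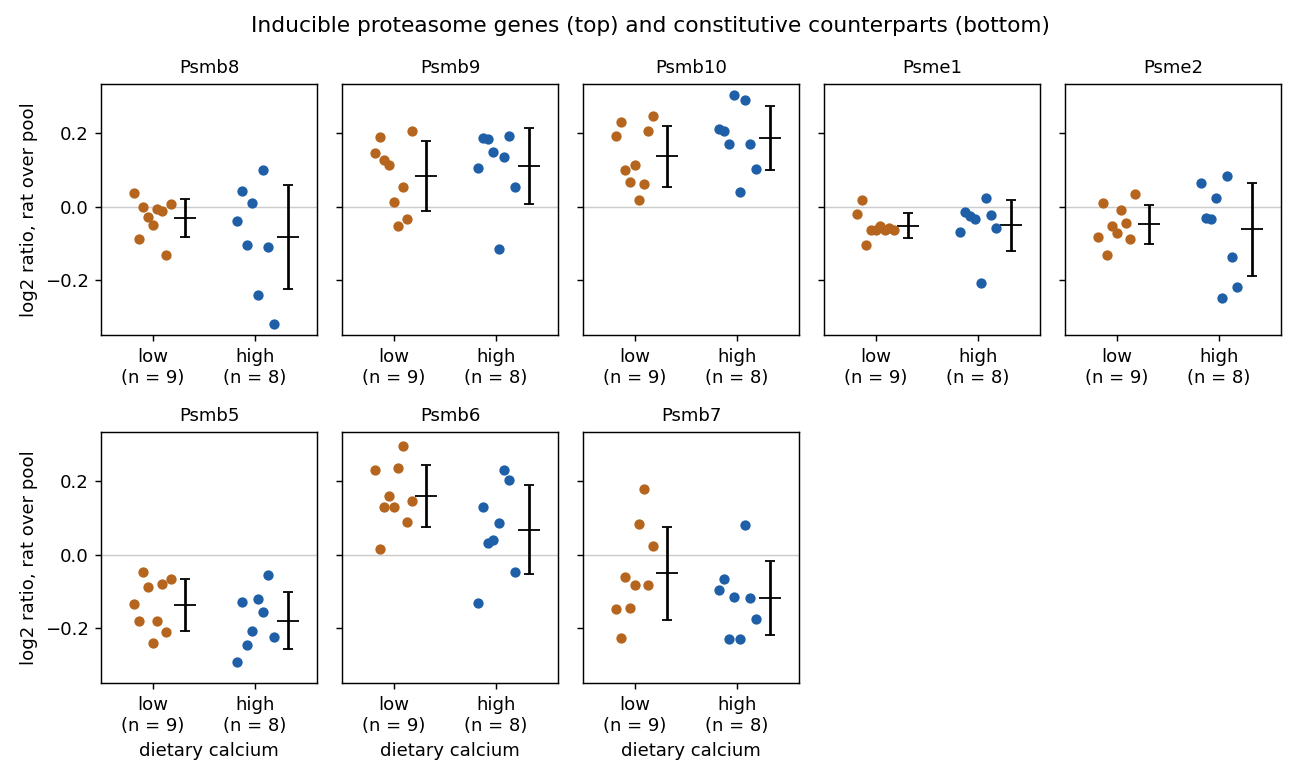
Log2 ratio of each rat to the pool (y axis) for the inducible genes and the constitutive catalytic subunits, with 1 point per rat, low calcium (n = 9) and high calcium (n = 8) on the x axis, and the mean with its SD beside the points. The high calcium rats of Psmb8 and Psme2 spread over and beyond the low calcium range, with SDs of 0.14 and 0.13 against 0.052 in both low calcium groups.

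The constitutive catalytic subunits were all below 0, with a median of -0.067, and 0 of the 3 stood at an unadjusted p under 0.05. Psmb5, the chymotrypsin-like subunit, ran from -0.29 through -0.18 to -0.055 at high and from -0.24 through -0.13 to -0.048 at low calcium. Its difference was -0.043 ± 0.042 (limma adjusted p = 0.822), and with median centring it was 0.0058. Psmb6, the caspase-like subunit, ran from -0.13 through 0.063 to 0.23 at high and from 0.015 through 0.15 to 0.29 at low calcium, with 2 high calcium values under the low calcium range. Its difference was -0.091 ± 0.052 (limma adjusted p = 0.658) and had the same sign on all 4 slides that held both diets, and with median centring it was -0.043. Psmb7, the trypsin-like subunit, ran from -0.23 through -0.12 to 0.081 at high and from -0.23 through -0.081 to 0.18 at low calcium, a difference of -0.067 ± 0.056 (limma adjusted p = 0.779). For Psmb7, 7 of 8 high calcium values were under the low calcium mean. Its difference was -0.0059 with median centring, -0.020 in the Cy5 channel alone, -0.039 without rat 11 and -0.12 with array weights.

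Each inducible subunit was then set against the one whose place it takes, within each rat. Psmb9 minus Psmb6 ran from -0.20 through 0.079 to 0.24 at high and from -0.29 through -0.085 to 0.18 at low calcium. The mean was higher by 0.12 ± 0.069 at high calcium, in 6 of 8 rats above the low calcium mean and on 4 of 4 slides (exact two-sided permutation test over 24310 assignments, p = 0.108, adjusted over the 3 pairs 0.173). Psmb10 minus Psmb7 ran from 0.21 through 0.28 to 0.42 at high and from -0.12 through 0.21 to 0.46 at low calcium. Every one of the 8 high calcium values exceeded the low calcium mean and none its highest rat, for a difference of 0.12 ± 0.069 (exact permutation p = 0.115, adjusted 0.173). In the Cy5 channel alone that difference was 0.010.

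For Psmb8 minus Psmb5 the diets had like means and unlike spreads. It ran from -0.12 through 0.16 to 0.26 at high and from 0.045 through 0.078 to 0.19 at low calcium, a difference of -0.0097 ± 0.057 (exact permutation p = 0.866, adjusted 0.866). Of the high calcium rats, 13, 17 and 18 lay below the low calcium range and 3 others above it, and 2 of 4 slides had a positive difference. None of the 3 pairs passed the adjusted threshold. In the authors' deposited log2 values the Psmb9 pair differed by 0.15 with an adjusted exact permutation p of 0.0464.

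**Figure D3:**
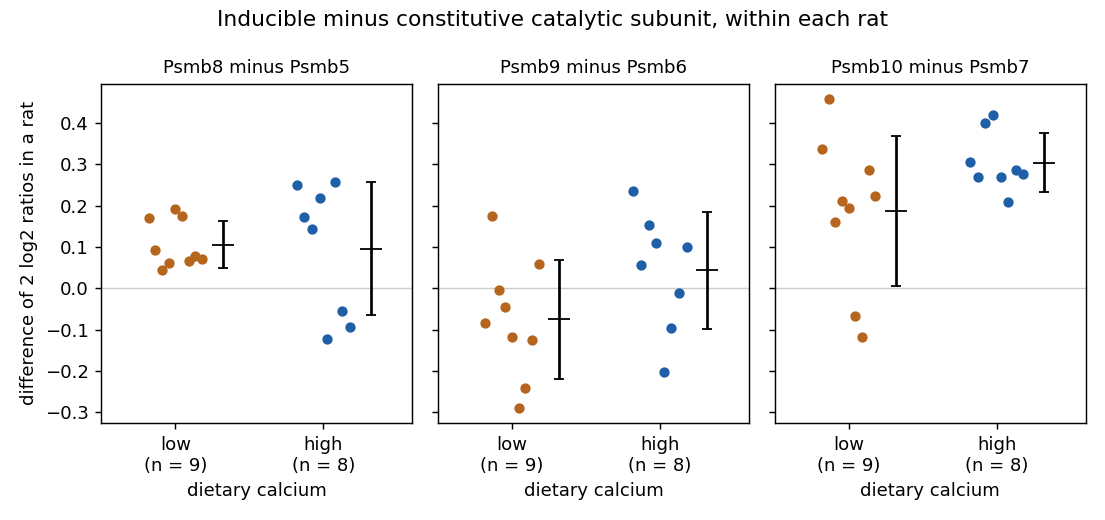
Difference between the log2 ratios of an inducible subunit and of its constitutive counterpart in each rat (y axis), by diet (x axis, n = 9 low and n = 8 high calcium), with 1 point per rat and the mean with its SD beside the points. The Psmb10 pair lies between 0.21 and 0.42 in every high calcium rat and between -0.12 and 0.46 in the low calcium rats.

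The inducible genes were compared with each other from rat to rat. Over the 17 rats, all 10 pairs had a Pearson r above 0, with a median of 0.61, and 6 of the 10 had an adjusted permutation p under 0.05 for r and 3 for Spearman's rho. Pairs of an inducible and a constitutive gene were not tested, so the r values do not show a relation particular to the inducible genes. Psmb8 with Psme2 had r = 0.76 (permutation p = 0.00065, adjusted 0.0065) and rho = 0.61 (permutation p = 0.0119, adjusted 0.0396). Without rats 13 and 18, the 2 farthest from the median of Psmb8, r was 0.43 (permutation p = 0.106), so the size of r depended on them. Leaving out the farthest rats also narrows the range of values, which by itself can lower r. Within the diets it was 0.89 over the 8 high and 0.033 over the 9 low calcium rats.

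Psmb9 with Psme1 had r = 0.67 (permutation p = 0.00283, adjusted 0.0141) and rho = 0.53 (permutation p = 0.0283, adjusted 0.0615). Within the diets r was 0.91 at high and 0.29 at low calcium. Without rats 8 and 13 it was 0.45 (permutation p = 0.0906), so its size depended on them. Psmb10 with Psme2 had r = 0.60 (permutation p = 0.0115, adjusted 0.0192) and rho = 0.64 (permutation p = 0.00629, adjusted 0.0378), and without rats 8 and 10 r was 0.72 (permutation p = 0.00262). Psmb10 with Psme1 had r = 0.61 (permutation p = 0.00504, adjusted 0.0154) and rho = 0.53 (permutation p = 0.0308, adjusted 0.0615), and without the same rats r was 0.71 (permutation p = 0.00156). Those 2 relations of Psmb10 kept an unadjusted permutation p under 0.05 without rats 8 and 10, the farthest from the median of Psmb10. Rat 13, the lowest in Psme1 and Psme2, stayed in. Without rat 13, 1 of the 10 pairs passed the adjusted threshold.

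Psmb9 with Psmb10 had r = 0.64 (permutation p = 0.00618, adjusted 0.0154) and rho = 0.63 (permutation p = 0.00757, adjusted 0.0378). Without rats 8 and 13 r was 0.41 (permutation p = 0.127), so its size depended on them. Within the diets it was 0.69 at high and 0.56 at low calcium. Psme1 with Psme2 had r = 0.62 (permutation p = 0.00796, adjusted 0.0159) and rho = 0.33 (permutation p = 0.196, adjusted 0.208). Without rats 13 and 14 r was 0.19 (permutation p = 0.495), so this relation rests on the rats left out. The 4 other pairs had r of 0.39 to 0.48 and did not pass. In the high calcium group all 10 pairs had r above 0, and in the low calcium group 8 did; the difference between the diets was not tested. Slides hold too few rats for values of their own, and after centring the 16 rats of slides 1 to 4 on their slide the r of the 10 pairs ran from 0.34 to 0.77. Without rat 13, 1 of the 10 pairs passed, without rat 14, 3 did, and with median centring in place of loess all 10 did. With median centring the SE of each inducible gene was 0.28, against 0.037 to 0.052 with loess. The r values then describe a far wider spread between rats and are not on the scale of those with loess.

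Of 11528 other genes, those whose log ratio followed the mean of the 5 inducible genes most closely over the 17 rats were Car15 (r = 0.77), Ska3 (0.75), Cert1 (0.74), Ubr7 (0.73), Mettl18 (0.73), Cdv3l1 (0.73), Ror1 (0.72), Zbtb18 (0.71), Rpl21 (0.70) and Gemin8 (0.70). The member genes were left out of this ranking. The genes named are the highest of many and share arrays and normalisation with the inducible genes, so these r values are a description. With median centring the r of 5 of them was below 0, as for Car15 at -0.43, while for Rpl21, a ribosomal protein gene, it was 0.99. The inducible genes then spread far more between rats, with an SE of 0.28 each.

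The core genes outside the catalytic sites had lower mean values at high calcium in all but 1 case, none past the adjusted threshold. Of the 7 alpha ring genes 6 were below 0, with a median of -0.090, and 1 stood at an unadjusted p under 0.05. Psma3 had the largest difference among them, -0.13 ± 0.058, or -8.79% with an interval of -16.1% to -0.856% (limma adjusted p = 0.514). It ran from -0.33 through -0.078 to 0.18 at high and from -0.020 through 0.074 to 0.18 at low calcium. In Psma3, 6 of the 8 high calcium values were under the lowest low calcium value, and rat 14 was above the highest. Its near-copy Psma3l had a like pattern, with a difference of -0.14 ± 0.053 (limma adjusted p = 0.431) and 6 rats below the low calcium range.

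Psma4 was the alpha ring gene above 0, at 0.0028 ± 0.051 (limma adjusted p = 0.993), with values from -0.18 through -0.12 to 0.065 at high and from -0.28 through -0.11 to 0.063 at low calcium. Its sign turned with an offset of 0, in the Cy5 channel alone and with array weights. Psma6 gave -0.13 ± 0.083 by its brightest probe and -0.23 ± 0.10 by its second probe (limma adjusted p = 0.698 and 0.517), the latter the lowest value of any member probe.

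All 4 non-catalytic beta ring genes were below 0, with a median of -0.051. Psmb1 ran from -0.23 through -0.14 to 0.17 at high and from -0.12 through 0.037 to 0.15 at low calcium. For Psmb1, 5 high calcium rats lay below the low calcium range and 1 above it, and the difference was -0.12 ± 0.052, or -7.85% with an interval of -14.5% to -0.652% (limma adjusted p = 0.524). With median centring it was -0.072. Psmb3, named after its value was seen, was nearest to 0 among the 4, at -0.029 ± 0.042 (limma adjusted p = 0.889).

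In the regulatory cap, all 6 ATPase genes were below 0, with a median of -0.053 and 1 at an unadjusted p under 0.05. Psmc6 ran from -0.11 through -0.023 to 0.11 at high and from 0.0096 through 0.078 to 0.19 at low calcium. For Psmc6, 4 of the 8 high calcium values were under the low calcium range and 7 under its mean. The difference was -0.10 ± 0.043, or -6.96% with an interval of -12.5% to -1.06% (limma adjusted p = 0.482), and its second probe gave -0.10 ± 0.049. With median centring the brightest probe gave -0.058. Psmc3, named after its value was seen, was nearest to 0, at -0.015 ± 0.038 (limma adjusted p = 0.940).

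Of the 10 non-ATPase cap genes 9 were below 0, with a median of -0.081, and 3 stood at an unadjusted p under 0.05. Psmd12, a scaffold subunit of the part of the cap called the lid, had the largest difference of the 42 genes. It ran from -0.25 through -0.13 to 0.18 at high and from -0.10 through 0.023 to 0.20 at low calcium. Rat 14 was the single high calcium rat above the low calcium mean, and 4 of the 8 lay below every low calcium rat. The difference was -0.16 ± 0.058, or -10.3% with an interval of -17.5% to -2.50% (limma adjusted p = 0.408), and on slides 1 to 4 it was -0.12, -0.15, -0.16 and -0.27. In the Cy5 channel alone it was -0.047.

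The other 2 cap genes at an unadjusted p under 0.05, named after their values were seen, were Psmd13 at -0.15 ± 0.074 (limma adjusted p = 0.567) and Psmd11 at -0.10 ± 0.047 (limma adjusted p = 0.551). The second probe of Psmd1, a large scaffold of the cap's base, gave -0.14 ± 0.052, with the smallest adjusted p of any member (0.398 in limma), and its brightest probe gave -0.073 ± 0.055. Psmd2, the other scaffold of the base and a docking site for ubiquitin shuttles, was the cap gene above 0, at 0.014 ± 0.042 (limma adjusted p = 0.952). It ran from -0.29 through -0.13 to -0.086 at high and from -0.31 through -0.19 to -0.042 at low calcium, so the high calcium rats lay inside the low calcium range. Its second probe, at -0.083 ± 0.055, had the opposite sign.

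The 3 assembly factors of the cap's base were below 0. Psmd10, also known as gankyrin, differed by -0.12 ± 0.066 (limma adjusted p = 0.650), with values from -0.15 through 0.083 to 0.23 at high and from -0.052 through 0.18 to 0.44 at low calcium. The slides did not share its direction, with 0.044 and 0.035 on slides 1 and 2 and -0.23 and -0.38 on slides 3 and 4, and with median centring the difference was -0.048. Psmd5 differed by -0.11 ± 0.056 (limma adjusted p = 0.580), with values from -0.25 through -0.015 to 0.095 at high and from -0.091 through 0.046 to 0.22 at low calcium, and was lower on all 4 slides. With median centring it was -0.059. Psmd9, named after its value was seen, differed by -0.012 ± 0.047 (limma adjusted p = 0.963).

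The alternative caps were also below 0. Psme3, which forms a nuclear cap, ran from -0.14 through -0.076 to 0.087 at high and from -0.042 through 0.011 to 0.097 at low calcium. For Psme3, 5 high calcium values were under the low calcium range, and the difference was -0.066 ± 0.039 (limma adjusted p = 0.683). Psme4, a single-chain cap, ran from 0.16 through 0.32 to 0.44 and from 0.21 through 0.40 to 0.47, a difference of -0.051 ± 0.051 (limma adjusted p = 0.824). With median centring both lay nearer to 0, Psme3 at -0.010 and Psme4 at -0.0029, and without rat 14 Psme4 was at -0.027. The median of all tested probes was 0.041 with median centring, against 0.0069 with loess. Psmc3ip, the gene that is no subunit, differed by -0.053 ± 0.051 (limma adjusted p = 0.810). The assembly chaperones Psmg1, Psmg2 and Psmg3 carry older names on this array and are outside the rule, with differences of -0.072 ± 0.052, -0.081 ± 0.059 and -0.031 ± 0.044 (limma adjusted p = 0.739, 0.747 and 0.887).

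Taking the alpha ring, all constitutive beta subunits and both kinds of cap subunit as 30 core and cap genes, 28 were below 0, with a median difference of -0.076. Their mean per rat ran from -0.18 through -0.089 to 0.053 at high and from -0.062 through -0.0036 to 0.052 at low calcium. High calcium rats 2, 9, 10, 13 and 18 lay below every low calcium rat, rats 3 and 17 lay inside the low calcium range, and rat 14 lay just above it. In rat 2 all 30 genes were below the low calcium mean, in rats 9 and 18, 29 were, and in rat 14, 5 were. Low calcium rats had between 8 and 25 of the 30 below the mean of their own group. Within slides 1 to 4, which held 2 rats of each diet, the mean differed by -0.056, -0.11, -0.011 and -0.11.

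The mean of the 5 inducible genes did not share that difference between the diets. It averaged 0.021 ± 0.095 (SD over 8 rats) on the high calcium diet against 0.018 ± 0.041 (SD over 9 rats) on the low, and 6 of 8 high calcium values exceeded the low calcium mean. Rats 13 and 18 lay below every low calcium rat, with all 5 genes below the low calcium mean in each, while rats 10 and 14 lay above every low calcium rat. Rats 2, 9 and 10 were low in the core and cap mean, at -0.12, -0.14 and -0.087, and at 0.055, 0.039 and 0.090 in the inducible mean. Other rats went the same way in both means: rats 13 and 18 lay below every low calcium rat, and rats 14 and 16 were the highest of their diets. Within slides 1 to 4 the inducible mean differed by -0.013, 0.062, 0.0023 and -0.023. Whether the diets differ more in the core and cap genes than in the inducible genes was tested for the 3 catalytic pairs alone, none of which passed.

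**Figure D4:**
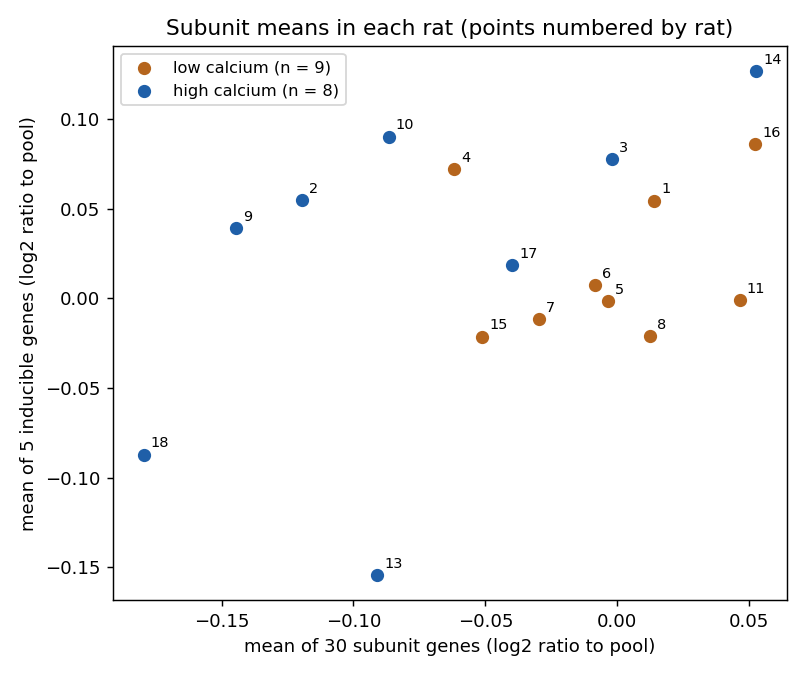
Mean log2 ratio to the pool of the 30 core and cap genes (x axis) and of the 5 inducible genes (y axis) in each rat, numbered by rat and coloured by diet. High calcium rats 2, 9, 10, 13 and 18 lie left of all low calcium rats, while on the y axis the high calcium rats span from -0.15 (rat 13) to 0.13 (rat 14) around the low calcium rats.

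The genes that work before and after the proteasome were taken from lists. The ubiquitin supply list had 10 tested genes, 4 above and 6 below 0, with a median of -0.0083. Its member with the smallest p was Ube2k, a ubiquitin-conjugating enzyme, at -0.098 ± 0.044 (limma adjusted p = 0.529), followed by Ube2l6, the conjugating enzyme of the interferon-induced modifier, at 0.076 ± 0.052, and Ubb, a polyubiquitin gene, at 0.049 ± 0.047. Ube2l6 was at 0.048 without rat 16, and Ubb at 0.027 without rat 10 and 0.0066 in the Cy5 channel alone. With median centring Ube2k was at -0.051. Of 19 partners of the proteasome 6 were above and 13 below 0, with a median of -0.022. Txnl1, a thioredoxin bound to the cap, differed by -0.14 ± 0.065 (limma adjusted p = 0.534), the ubiquitin shuttle Rad23b by -0.090 ± 0.043, and Vcp, the segregase that extracts tagged proteins, by -0.086 ± 0.043, and with median centring Rad23b and Vcp were at -0.044 and -0.039. Pomp, the maturation factor of the core, differed by -0.072 ± 0.056, and Nfe2l1, the transcription factor of proteasome genes, by -0.013 ± 0.055, both named after their values were seen.

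Upstream of the inducible genes, 8 of 13 tested genes of the interferon-gamma axis were above 0, with a median of 0.011. Irf2 differed by 0.18 ± 0.060 (limma adjusted p = 0.353), Ifng itself by -0.15 ± 0.12 and its receptor chain Ifngr2 by 0.10 ± 0.082 (limma adjusted p = 0.765 for both). Single rats moved these values: Ifng was at -0.070 without rat 18, -0.23 without rat 3 and -0.27 without rats 3 and 16, and Ifngr2 was at 0.060 without rat 18. Irf1, a transcription factor that binds promoters of the inducible genes and was named after its value was seen, was at 0.019 ± 0.091. Downstream, 6 of 9 genes of peptide loading were above 0, with a median of 0.042. The chaperones Pdia3 and Canx differed by -0.23 ± 0.11 and -0.12 ± 0.060 (limma adjusted p = 0.570 and 0.614), and tapasin, Tapbp, by 0.080 ± 0.051. Canx was at -0.070 without rat 18 and -0.020 with median centring, and Tapbp at 0.14 with median centring. The peptide transporter genes Tap1 and Tap2, which lie beside Psmb8 and Psmb9 in the MHC region, were at 0.056 ± 0.074 and 0.074 ± 0.056. In each of these 4 lists 0 genes passed limma's adjusted threshold. At an unadjusted p under 0.05 stood 1 of 10 genes for ubiquitin supply, 1 of 19 partners and 1 of 13 in the interferon-gamma axis. For peptide loading it was 0 of 9, and among all tested probes the share was 8.79%.

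Markers of cell types also had values that differed between the diets, with 0 genes past limma's adjusted threshold, as in the whole table. All 12 epithelial markers were well above background on every array, as the label of colon mucosa calls for, and 9 of the 12 were above 0, with a mean per rat of -0.073 to 0.26 at high and -0.20 to 0.14 at low calcium. Neutrophil markers were below 0 in 6 of 6 (mean -0.74 to 0.33 at high, -0.34 to 0.63 at low calcium) and fibroblast markers in 5 of 5 tested of 6 (-1.01 to 0.22 and -0.17 to 0.55). Their median differences were -0.38 and -0.53, against -0.076 for the core and cap genes. At an unadjusted p under 0.05 stood 5 of the 6 neutrophil and 5 of the 5 fibroblast markers. So did 2 of 4 endothelial, 2 of 7 leukocyte and 2 of 7 macrophage markers. The count was 1 of 7 T cell, 1 of 5 smooth muscle, 1 of 12 epithelial and 0 of 3 B cell markers. The epithelial marker at that p was higher at high calcium and the others were lower. Among all tested probes the share was 8.79%, with 4.84% lower at high calcium. General leukocyte markers were below 0 in 6 of 7 tested (-0.30 to 0.088 and -0.12 to 0.16), T cell markers in 6 of 7 (-0.28 to 0.060 and -0.14 to 0.18), macrophage markers in 6 of 7 (-0.35 to -0.0034 and -0.17 to 0.18), endothelial markers in 3 of 4 (-0.30 to 0.079 and -0.15 to 0.13) and smooth muscle markers in 3 of 5 (-0.40 to 0.23 and -0.37 to 0.20). B cell markers were below 0 in 0 of 3 (-0.25 to 0.25 and -0.48 to 0.31). Rat 18, with the lowest core and cap mean, was also the lowest high calcium rat for the leukocyte, T cell, macrophage, neutrophil, fibroblast, endothelial and smooth muscle means. Rat 3, with the highest neutrophil and fibroblast means at high calcium, had a core and cap mean of -0.0021. Rat 9, at -0.14 in the core and cap mean, had the highest leukocyte and macrophage means at high calcium (0.088 and -0.0034). Its neutrophil and fibroblast means were -0.64 and -0.21. Rat 2, at -0.12, had leukocyte and macrophage means of 0.0018 and -0.025, and neutrophil and fibroblast means of -0.35 and -0.43. The part of these markers in the values of the proteasome genes was not tested.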

How the data were processed

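Colon mucosa RNA of each of 17 rats was hybridised to an array of its own, and a rat's diet was read from its title. Per the file headers, the scanner software Agilent Feature Extraction, in version 9.5.1.1, wrote the deposited spot intensities and the log10 ratios of Cy5 over Cy3; the submitters' processing notes give version 9.5. The authors' deposited series matrix gives log2 values, present for 28213 of its 45018 features, by steps that the labels do not give. It followed the raw log2 ratio of Cy5 over Cy3 (r = 0.98 with arrays and genes centred, over values that are not independent), and every array had a median of 8.76, while the offset of its scale is unknown. It served as an alternative, and 0 of its columns were left unused.

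In limma 3.58.1 under R 4.3.3, normexp (offset 50) corrected the background and loess normalised each array. Control spots and spots with outlier marks had weight 0, the spots of a probe were averaged, and 27101 of 41012 probes were tested, those well above background in the Cy5 channel of 8 arrays or more. The test between diets was limma's (lmFit, then eBayes), two-sided and with no covariate, and its p-values were adjusted by Benjamini-Hochberg over every tested probe, with a threshold of 0.05. Loess and centring remove any change that most probes share. The fit was tested on simulated data.

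The probe with the highest mean signal stood for a gene. RefSeq's GRCr8 table gave current names for 10735 probes by accession, 5571 by symbol and 3729 by synonym, and 20977 kept the array's name; 49 of the 50 member probes had the same name in both. Probe positions are those of the files (build rn3) and promoter positions those of RefSeq (build GRCr8).

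The inducible genes, their counterparts, Psme3 and Psme4 are described in full, as are in each other class the gene with the largest difference above 0, where there is one, the gene with the largest below 0 and the gene with the smallest p. From each pathway list up to 3 genes with the smallest p are named, and the 10 genes most like the inducible mean. The value of 1 gene of the interferon-gamma list is not reported here. The members, lists, motifs and tests were chosen with earlier results of these data known. Correlations over rats used 100000 permutations, adjusted over 10 pairs. Other background corrections, normalisations, filters, variance models, slide blocks and probe rules were tried, as was leaving out each rat, and rats 3 and 16 together, which was added after the data were seen.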

Additional observations from a re-analysis of the deposited data

Results flagged for a closer look

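In 3 cases, high calcium values lay far from the other rats of their group, by the gap to the nearest rat against the range of the group. Psmb9 was -0.12 in rat 13, while the other 7 high calcium rats lay between 0.054 and 0.19. Psme1 was -0.21 in the same rat, while the others lay between -0.068 and 0.025. Psma4 was 0.065 in rat 17, while the others lay between -0.18 and -0.068. Values in 46 groups of rats were searched in this way and 3 were found, by Dixon's 95% critical value, which marks about 1 in 20 independent groups by chance. The groups searched share rats, so that rate is a guide only. Rat 13 is also 1 of the 2 rats farthest from the median of Psmb8.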

How the results depend on the processing

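Under 31 alternatives 0 member probes passed the adjusted threshold, and 35 to 47 of the 50 were below 0. Of all tested probes, 2 passed with the scanner's log ratio, 0 to 193 when 1 rat was left out (193 without rat 3 and 38 without rat 16), and 328 without both. The count of member probes at an unadjusted p under 0.05, 10 as reported, stands beside that of all 27101 tested probes, 2382 as reported. It was 5 with the scanner's log ratio (2837 of all), 0 with median centring (780) and 4 in the Cy5 channel alone (2328). In the series matrix it was 1 (2363 of 26268), and with array weights 20 (3719). When 1 rat was left out it ran from 4 (without rat 18, 1589 of all) to 20 (without rat 14, 3084). It was 5 without rat 8, 10 or 11 (2226, 2033 and 1940). With median centring the SE of each inducible gene was 0.28, against 0.037 to 0.052 with loess. The median of the core and cap genes ran from -0.10 to -0.018 and that of the inducible genes from -0.0098 to 0.050. Both highest values came with median centring, where the median of all tested probes was 0.041. Psmb9 minus Psmb6 was 0.15 in the series matrix (adjusted exact permutation p = 0.0464, in a range of 0.0464 to 0.312 over its alternatives). Psmb8 minus Psmb5 ran from -0.033 to 0.021 when 1 rat was left out. Of the 10 pairs of inducible genes, 10 passed with median centring, 1 in the Cy5 channel alone, 10 in the series matrix, 3 with slide-centred values, and 1 to 8 when 1 rat was left out.

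Among member probes 35 were below 0 with median centring and 41 in the series matrix, against 45. Of the genes named by rule, the sign turned for Psmb10 at -0.0098 in the Cy5 channel alone; Psme1 at -0.0001 with an offset of 0, -0.0063 with array weights and -0.0050 without rats 3 and 16; Psme2 at 0.0017 with the scanner's log ratio, 0.034 with median centring and 0.013 in the series matrix; Psmb5 at 0.0058 with median centring. Psma4 was -0.0031 with an offset of 0, -0.0006 in the Cy5 channel alone and -0.011 with array weights. Psmd2 was -0.016 in the Cy5 channel alone and -0.046 as the mean of its probes. When 1 rat was left out, Psme1 ran from -0.0092 to 0.024, Psme2 from -0.034 to 0.013, Psma4 from -0.021 to 0.024 and Psmd2 from -0.0038 to 0.033. The r with the inducible mean turned with median centring for Car15 (-0.43), Ska3 (-0.39), Ubr7 (-0.070), Ror1 (-0.48) and Zbtb18 (-0.17), and in the series matrix for Ska3 (-0.19), Ror1 (-0.50), Zbtb18 (-0.16) and Gemin8 (-0.024). The cause was not tested for any of these.

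No paired analysis was possible because the diets share no replicate numbers. Scan date could not be a block, since the files give 1 date; the variance models and filters do not alter the rats' values, so the catalytic pairs and correlations were not recomputed under them. The arrays limit what can be seen: the median SE over all tested probes was 0.057, larger than many of the differences given.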
